A study of Brassica napus with 12 samples.

Results

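The genes described here are 83 genes of rapeseed, *Brassica napus*, that stood higher in submerged than in control seedlings of a resistant pool while the susceptible pool changed little. They were chosen from the 96921 genes whose identifiers place them on an A or C chromosome, among 109614 listed genes. The rule took log2(RPKM + 1) as the level of a gene, RPKM being reads scaled to transcript length and to library size. A gene was kept if its mean level after submergence exceeded that of controls by at least 1.2 in the resistant pool, if the same difference lay between -0.4 and 0.4 in the susceptible pool, if the lowest resistant submerged library was above the highest resistant control, and if resistant submerged libraries averaged at least 3 RPKM. The responses of both pools therefore chose the genes, and both responses and their difference are given below as descriptions. No source used here links these identifiers to named genes; each gene is therefore given by its identifier, and neither a role nor a sequence is given for it.

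RNA came from young seedlings of 2 pools of germplasm, which the labels call resistant and susceptible to submergence. The 4 groups were resistant seedlings after 24 h under water, resistant seedlings kept as control, susceptible seedlings after 24 h under water and susceptible seedlings kept as control. Each group had 3 libraries that the labels call biological replicates, and each was made from 5 germplasm mixed together, whose separate contributions cannot be told apart. The labels do not say whether the 3 replicates of a group are separate mixtures or samples of 1 mixture, so SDs, SEs and p-values measure the spread between these libraries, which may be technical. Seedlings were about 1 week old, had flat cotyledons and a first true leaf forming, and were submerged whole in distilled water.

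Submergence slows the exchange of gases between a plant and its surroundings, and oxygen within the tissue falls. Plants are known to answer with fermentation in place of respiration, with faster use of sugar reserves, and with signalling through ethylene and through transcription factors of the ethylene response family that oxygen destabilises. Rapeseed is an allotetraploid with an A and a C subgenome, so most genes have a near-identical copy in the other subgenome. Reads that match both copies can be split or lost in RPKM values, so values of 1 copy are uncertain. In whole seedlings a change in the cells that make a transcript and a change in the transcript per cell cannot be told apart.

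Depth relative to the deepest library, the first resistant control, ran from 0.639 to 1, read from the spacing of the lowest values; absolute depth is unknown. Within groups, log2 levels of pairs of libraries correlated across genes with r from 0.948 to 0.980. The identifiers matched none of the entries of the reference table, so the labelled tissue was not checked against marker genes.

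In the resistant pool the 83 genes stood 1.21 to 3.09 above controls on the log2(RPKM + 1) scale, with a median of 1.51. Their median level was 18.7, 14.4 and 16.8 RPKM in the resistant submerged libraries and 4.35, 5.76 and 4.34 RPKM in the resistant controls. It was 8.93, 11.8 and 9.85 RPKM in the susceptible submerged libraries and 9.73, 8.75 and 8.88 RPKM in the susceptible controls. The typical susceptible level thus lay between the resistant groups, under water and in air alike. Of the 83 genes, 82 reached 1 RPKM in at least 3 libraries and entered the fit across 57391 genes (limma), and all 82 had an adjusted p under 0.05 in the resistant response, where 11.9% of all tested genes were called higher and 26.7% lower. The resistant groups did not overlap in any of the 83 genes, against 16.7% of all tested genes with submerged above control. The rule used that contrast, and nothing is read from these counts.

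**Figure D1:**
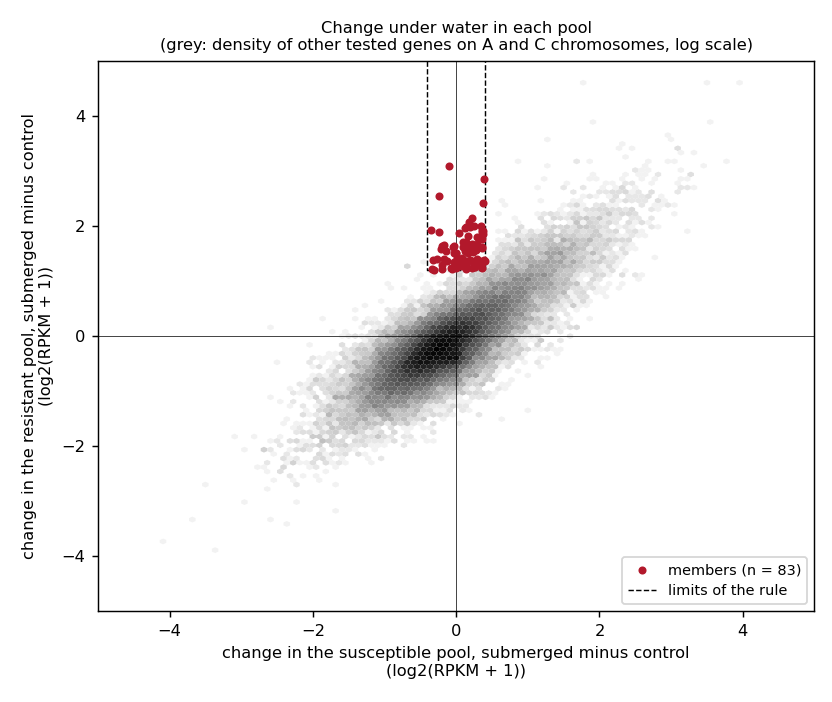
Change under water in the susceptible pool (horizontal axis) and in the resistant pool (vertical axis), both as submerged minus control in log2(RPKM + 1). Red points are the 83 genes, dashed lines the limits of the rule, and grey the density of the other tested genes on A and C chromosomes, of which 13 lie outside the axes. The 83 genes sit above 1.2 on the vertical axis and within 0.4 of 0 on the horizontal axis, at the upper edge of a cloud that runs along the diagonal.

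Few genes with a rise in the resistant pool met the limit on the susceptible pool. Without that limit the rule gave 2326 genes. Of these, 1694 (72.8%) also stood at least 1.2 higher in the susceptible pool, 531 (22.8%) stood between 0.4 and 1.2 higher, 83 (3.57%) lay within 0.4 of 0 and 18 (0.774%) stood more than 0.4 lower. The same rule with the pools exchanged gave 98 genes. The lowest included resistant change was 1.20546 and the highest excluded one 1.19994, and the highest included susceptible change was 0.396 and the next excluded one 0.403. The set is therefore cut from a continuous range at its edges.

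In the susceptible pool the change of the 83 genes ran from -0.356 to 0.396 with a median of 0.13, and it was above 0 for 57 genes and below 0 for 26. The median change of all tested genes was -0.19 in this pool and -0.22 in the resistant pool, so relative to the other genes the 83 genes stood 0.32 higher in the susceptible pool and 1.73 higher in the resistant pool. The 3 submerged libraries lay above all 3 controls in 8 of the 83 genes and below them in 1, against 14% and 34.3% of all tested genes. By limma, 1 gene was called higher in the susceptible pool and none was called lower at an adjusted p under 0.05, against 12% and 28.6% of all tested genes, and 4 and 0 genes had an unadjusted p under 0.05. After median ratio scaling, which removes the shift of all genes, 8 (9.76%) were called higher and none lower, against 18.02% and 17.0% of all tested genes. The 1 gene, singled out after its values were seen, was BnaC09G0503100ZS. It had 1.23, 1.14 and 0.846 RPKM in susceptible submerged libraries and 0.465, 0.557 and 0.825 RPKM in susceptible controls. Its log2 change was 0.36 ± 0.13 (SE, limma adjusted p = 0.0425). The rule set limits on this response, so the p is a description.

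The difference between the responses of the pools, the interaction of pool and submergence, was called in a minority of the 83 genes. The rule used both responses, so these calls and their p-values are descriptions. All 82 tested genes had a larger change in the resistant pool, as the rule requires, and 78 had an unadjusted p under 0.05. By limma, 15 were called at an adjusted p under 0.05 and 67 were not, beside 0.192% of all tested genes called in this direction. The called differences ran from 1.24 to 3.19 with a median of 1.57, and the median adjusted p of the 82 genes was 0.147. The count fell below 10 when any of 10 libraries was left out, to between 1 (without the first susceptible control) and 9 (without the third susceptible submerged library). It was 2 when the library left out was the first resistant submerged, the third resistant control or the first susceptible submerged one, and 3 when it was the third of resistant submerged or of susceptible control. It was 6 without the first or the second resistant control and 8 without the second resistant submerged library. Without the second susceptible submerged library it was 10, and without the second susceptible control it was 18. The calls in this direction over all 57391 tested genes moved as well. They numbered 110 with all libraries, 10 without the first susceptible control and 210 without the second.

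The rule was also applied to sets of libraries with 1 replicate number left out of every group, and the change was then read in the libraries left out. Those libraries played no part in the choice, although the genes chosen are not exactly the 83. Of the genes chosen without numbers 1, 2 and 3, 50 of 75, 55 of 131 and 41 of 115 were among the 83. Without the libraries numbered 1, 75 genes were chosen, and in the left-out libraries their median change was 1.49 in the resistant pool and 0.059 in the susceptible pool. Without those numbered 2, 131 genes were chosen, with left-out medians of 0.91 for resistant and 0.44 for susceptible seedlings. Without those numbered 3, 115 genes were chosen, with left-out medians of 1.55 for resistant and 0.87 for susceptible seedlings. The rise in the resistant pool was thus seen in libraries that had not chosen the genes, whereas the flat susceptible response was seen in the first round and not in the other rounds.

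By gene, the left-out resistant change was at least 1.2 in 60%, 39.7% and 67.8% of the genes chosen without numbers 1, 2 and 3, against 5.02%, 4.93% and 5.53% of tested A and C genes in the same libraries. The left-out susceptible change lay within 0.4 of 0 in 62.7%, 29.0% and 27.8% of the chosen genes, against 48.7%, 45.6% and 47.2% of tested genes. It was 1.2 or more in 2, 25 and 41 of them. The resistant change exceeded the susceptible change in the left-out libraries in 90.7%, 78.6% and 69.6% of the chosen genes, against 48.4%, 49.8% and 55.1% of tested genes. Of the 83 genes, 16 were chosen in all 3 rounds, 35 in 2, 28 in 1 and 4 in none. Left-out values of the 83 alone were not summarised, so these shares describe the genes chosen in each round. A flat susceptible response was not seen in every round, and the 83 genes are therefore called the rule genes below.

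**Figure D2:**
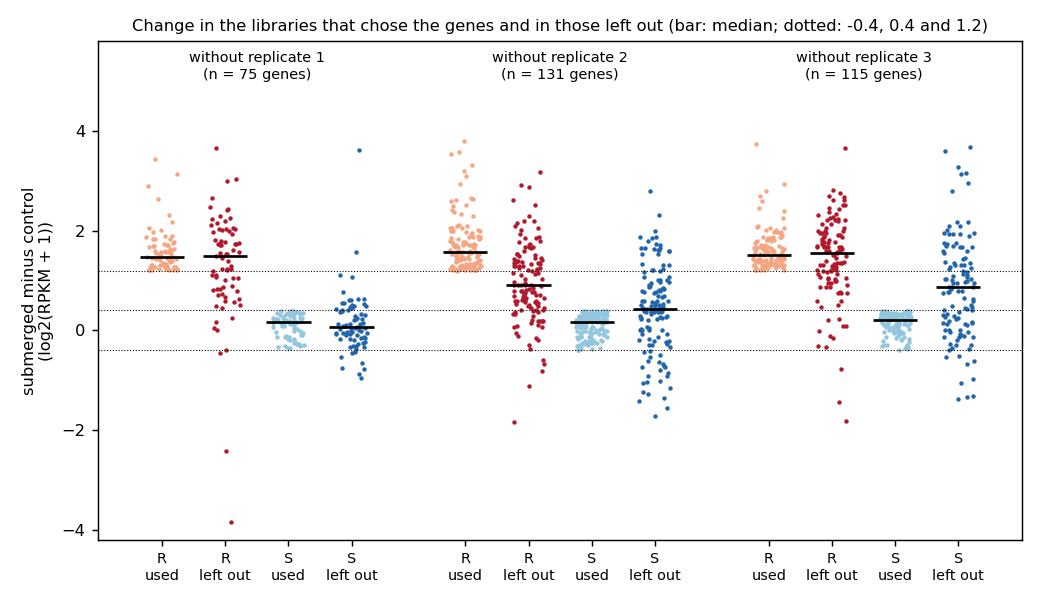
Submerged minus control in log2(RPKM + 1) for the genes chosen without replicate 1, 2 or 3 of every group. For each round, points show each chosen gene in the resistant (R, red) and susceptible (S, blue) pool, in the libraries that chose it (pale) and in the libraries left out (dark), and bars are medians. The left-out susceptible medians are 0.059, 0.44 and 0.87, while the left-out resistant medians are 1.49, 0.91 and 1.55.

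Leaving out single libraries gave a similar picture. The rule then found 77 to 103 genes and kept 60 to 78 of the 83. Of the 83 genes, 21 were found without any 1 of the 12 libraries, 18 in 11 of the 12 repeats, 20 in 10 and 24 in 9 or fewer. In all, 45 genes were lost in at least 1 repeat without a susceptible library and 34 in at least 1 repeat without a resistant library. The 21 genes found in every repeat had resistant changes from 1.30 to 3.09 and susceptible changes from -0.20 to 0.29. The difference of responses was called for 6 of them, beside 0.192% of all tested genes in this direction. Both the rule and the repeats chose these genes by their responses, so this count is a description.

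The gene with the largest resistant change was BnaA09G0383300ZS. It had 137, 65.1 and 109 RPKM in resistant submerged libraries and 16.3, 9.76 and 7.73 RPKM in resistant controls. In the susceptible pool it had 72.2, 41.8 and 87.0 RPKM after submergence and 94.3, 47.9 and 71.4 RPKM in controls. The resistant groups did not overlap, the susceptible groups overlapped widely, and every susceptible library was above every resistant control. Resistant seedlings changed by 3.09 ± 0.37 and susceptible seedlings by -0.098 ± 0.368 on the log2(RPKM + 1) scale (SE, n = 3 per group). The difference was 3.19 ± 0.52 (limma adjusted p = 0.0356), a call kept in 9 of 18 alternatives. The rule chose the gene by these responses, so this p is a description. The gene was found by the rule without any 1 of the 12 libraries.

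BnaA03G0439700ZS had 239, 116 and 115 RPKM in resistant submerged libraries and 19.9, 24.5 and 15.01 RPKM in resistant controls. It had 73.5, 106 and 94.4 RPKM in susceptible submerged libraries and 65.9, 51.9 and 96.2 RPKM in susceptible controls. All 6 susceptible libraries lay between the resistant groups. The resistant change was 2.86 ± 0.31 and the difference of responses 2.48 ± 0.44 (SE, limma adjusted p = 0.0441). This call was kept in 4 of 18 alternatives. The rule chose the gene by these responses, so the p is a description.

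BnaA10G0211400ZS had the largest difference of responses after BnaA09G0383300ZS among genes averaging at least 10 RPKM in resistant submerged libraries. It had 14.3, 9.21 and 14.004 RPKM in resistant submerged libraries and 0.857, 1.82 and 1.21 RPKM in resistant controls. It had 9.53, 13.2 and 6.36 RPKM in susceptible submerged libraries and 12.04, 6.50 and 17.4 RPKM in susceptible controls. Resistant controls alone were low, and the other 3 groups overlapped. The difference of responses was 2.79 ± 0.46 (SE, limma adjusted p = 0.0365), a call kept in 6 of 18 alternatives. Here too the rule had used the responses, so the p is a description.

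The most abundant rule genes both lie on A02. BnaA02G0077500ZS had 716, 552 and 564 RPKM in resistant submerged libraries and 225, 257 and 244 RPKM in resistant controls. It had 845, 574 and 765 RPKM in susceptible submerged libraries and 638, 552 and 800.4 RPKM in susceptible controls. Submerged resistant seedlings reached the range that the susceptible pool occupied in both conditions. BnaA02G0014300ZS averaged 229 ± 25.1 RPKM in resistant submerged libraries and 99.3 ± 20.7 RPKM in resistant controls, and 283 ± 81.8 RPKM in susceptible submerged libraries and 263 ± 98.4 RPKM in susceptible controls (SD, n = 3 each). Its susceptible libraries likewise overlapped the resistant submerged ones and lay above the resistant controls, and the rule found it in 7 of the 12 repeats that left out a library.

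**Figure D3:**
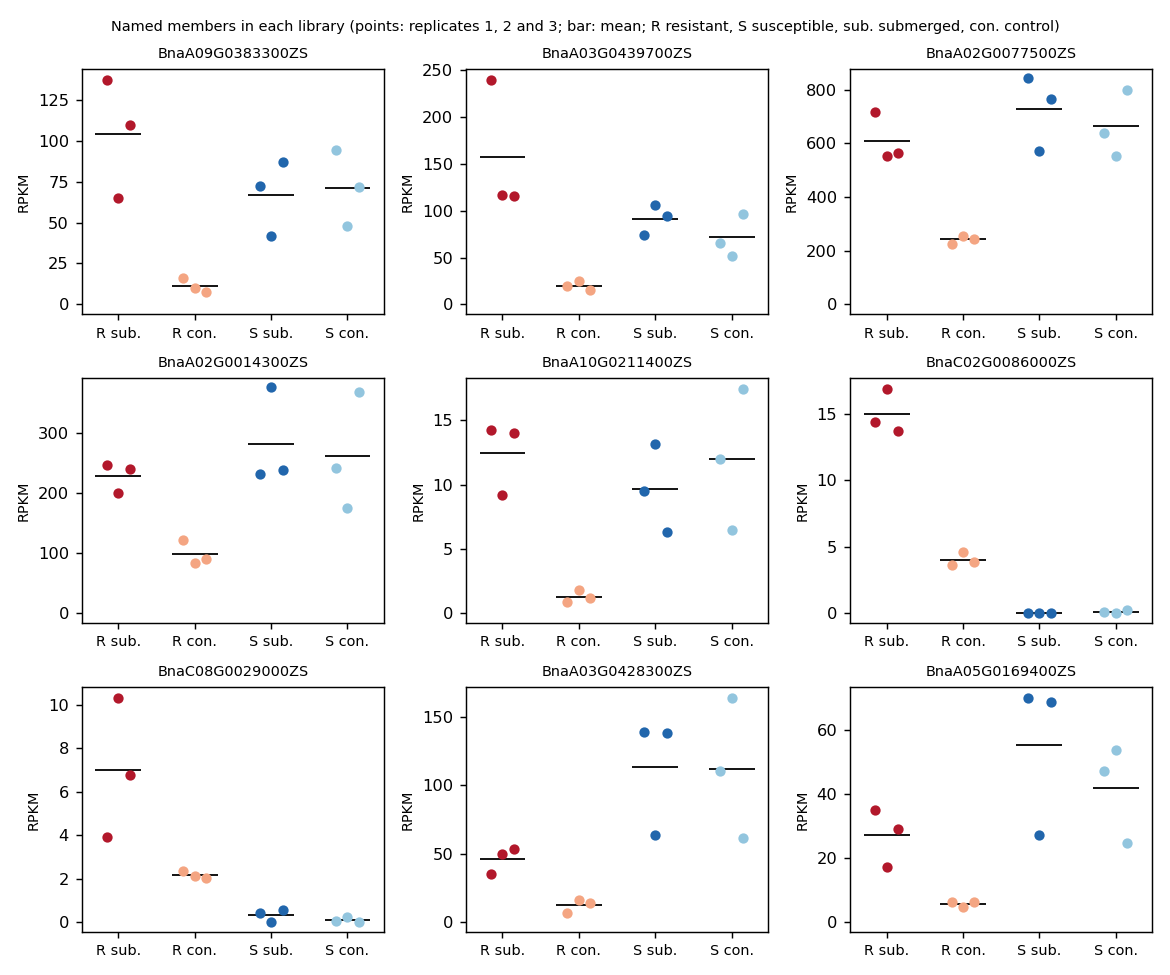
RPKM of 9 named rule genes in each of the 12 libraries. Points are replicates 1, 2 and 3 from left to right within resistant submerged, resistant control, susceptible submerged and susceptible control seedlings, bars are means, and each panel has its own scale. In 7 panels the resistant controls are the low group, and in the other 2, BnaC02G0086000ZS and BnaC08G0029000ZS, the susceptible libraries lie below every resistant control.

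The level of the susceptible pool relative to the resistant pool was compared as the difference between pools averaged over both conditions. In this balanced design that contrast does not depend on either response, but the rule asked for at least 3 RPKM in resistant submerged libraries and set no minimum in the susceptible pool. The counts higher in the resistant pool are therefore a description and support nothing. The demand for resistant groups that do not overlap left out 4 of 87 genes. The rule genes varied more between replicates than tested A and C genes did: their median SD of log2(RPKM + 1) was 0.321 and 0.144 in resistant submerged, 0.299 and 0.172 in resistant control, 0.317 and 0.190 in susceptible submerged and 0.285 and 0.2005 in susceptible control libraries, rule genes given before tested genes. By limma, 21 of 82 rule genes (25.6%) stood higher in the resistant than in the susceptible pool and 25 (30.5%) stood lower at an adjusted p under 0.05, against 21.1% and 8.93% of all tested genes. The share lower was above that of all genes. After median ratio scaling the shares were 23.2% and 34.1% of rule genes, against 14.8% and 12.7% of all tested genes, and after quantile normalization 23.2% and 31.7%, against 15.2% and 11.1%. With a mean of at least 5 RPKM over all 12 libraries asked of every gene, 57 rule genes were tested. Of these, 6 (10.5%) stood higher and 25 (43.9%) lower, against 18.3% and 9.88% of all tested genes. Genes can pass that filter through high susceptible values, so its shares are a description. Without that filter, the share lower was above that of all genes under each scaling. The share higher was above or below that of all genes depending on the fit. The median difference was -0.046 over the rule genes and 0.079 over all tested genes. Among the 98 genes of the exchanged rule, 14.3% were above and 17.3% below the susceptible level. Among the 1664 genes that rose by the same limits in both pools, the shares were 13.4% and 22.5%. These shares were not tested against each other. A larger spread between replicates was not particular to the rule genes. The median SD within groups was 0.329 in rule genes, 0.312 in genes of the exchanged rule and 0.245 in genes that rose in both pools. In simulated data the fit recovered 77% of 2-fold and 97% of 4-fold differences between pools, 100 genes of each size among 57391. The changed genes were drawn from the more abundant genes, and no gene responded to submergence. These rates are therefore not those of the rule genes, which varied more and include genes at low levels.

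**Figure D4:**
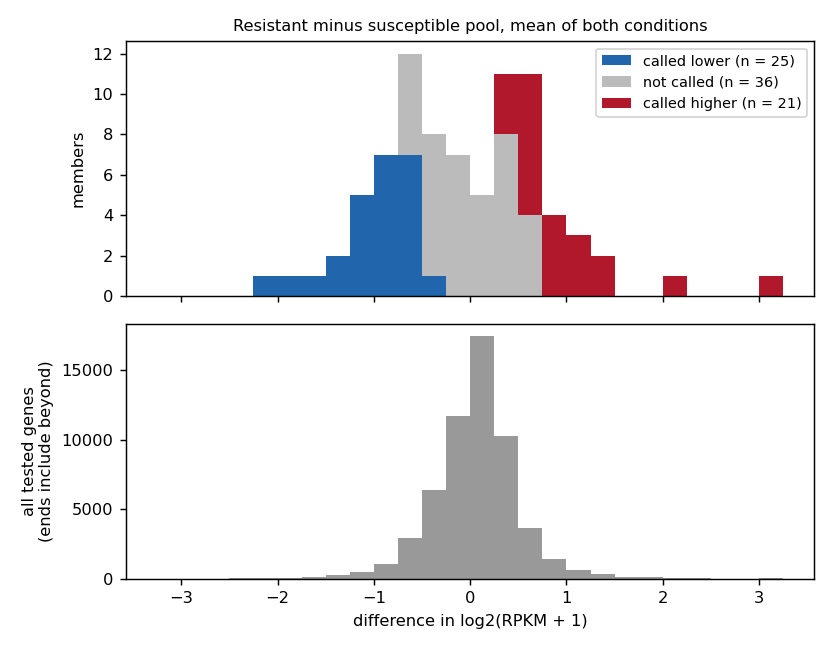
Number of genes by the difference in log2(RPKM + 1) between the resistant and the susceptible pool, averaged over submerged and control seedlings, for the 82 tested rule genes (top) and all 57391 tested genes (bottom). Top colours mark genes called lower (25), not called (36) and called higher (21) in the resistant pool at a limma adjusted p under 0.05. The rule genes spread to both sides of 0, from -2.14 to 3.08.

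In the 25 genes lower in the resistant pool, the resistant submerged mean was closer to the susceptible level than the resistant control mean was. A rise in the resistant pool and a lower pool average together require this, so it is a description. In some genes the resistant submerged mean was still below the susceptible level. The median level of the 25 genes was 27.2 RPKM in resistant submerged, 8.39 in resistant control, 36.6 in susceptible submerged and 30.7 in susceptible control seedlings. In 14 of them the susceptible mean was above the resistant submerged mean. The largest difference was that of BnaA03G0428300ZS, at 35.02, 49.6 and 53.7 RPKM in resistant submerged and 6.67, 16.6 and 13.9 RPKM in resistant control libraries, against 139, 64.0 and 138 RPKM in susceptible submerged and 111, 164 and 61.6 RPKM in susceptible control libraries. It was the 1 rule gene with all 6 susceptible libraries above every resistant submerged library (pool difference -2.14 ± 0.30, SE; limma adjusted p = 0.000421). BnaA05G0169400ZS had 34.9, 17.1 and 29.2 RPKM in resistant submerged and 6.30, 4.86 and 6.27 RPKM in resistant control libraries, against 69.9, 27.3 and 68.6 RPKM in susceptible submerged and 47.1, 53.7 and 24.8 RPKM in susceptible control libraries (pool difference -1.77 ± 0.27, SE; limma adjusted p = 0.000869). Its susceptible libraries overlapped the resistant submerged ones and were all above the resistant controls. In this class the first resistant submerged library was the highest of its group in 20 of 25 genes and the second in 0, and the second resistant control was the highest of its group in 17; among tested A and C genes these libraries were the highest in 30.5%, 31.4% and 42.6%. The part of these libraries in the result was not tested, and the count of genes lower in the resistant pool was 22 to 27 when single libraries were left out.

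In the 21 genes higher in the resistant pool, levels were lower. The susceptible mean was closer to the resistant control mean than to the resistant submerged mean. The rise and the higher pool average likewise require this. The median level of the 21 genes was 7.44 RPKM in resistant submerged, 1.75 in resistant control, 1.30 in susceptible submerged and 0.963 in susceptible control seedlings. In 13 of them the susceptible mean was below the resistant control mean. BnaC02G0086000ZS had 14.4, 16.8 and 13.7 RPKM in resistant submerged and 3.65, 4.598 and 3.89 RPKM in resistant control libraries. It was listed at 0 in all 3 susceptible submerged libraries and stood at 0.114, 0 and 0.276 RPKM in susceptible controls. The gene was thus measured in the resistant pool in both conditions and was at or near 0 in the susceptible libraries. Its pool difference was 3.08 ± 0.09 and its difference of responses 1.83 ± 0.18 on the log2(RPKM + 1) scale (SE). BnaC08G0029000ZS had 3.95, 10.3 and 6.77 RPKM in resistant submerged and 2.35, 2.13 and 2.05 RPKM in resistant control libraries, against 0.455, 0 and 0.572 RPKM in susceptible submerged and 0.0675, 0.234 and 0 RPKM in susceptible control libraries (pool difference 2.03 ± 0.18, SE). Both genes passed the minimum levels through the resistant libraries, so no p is given for their pool differences. These 2 were the rule genes with all 6 susceptible libraries below every resistant control.

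The other 36 tested genes had no called difference between pools on average, and their median level was 18.2 RPKM in resistant submerged, 5.67 in resistant control, 10.6 in susceptible submerged and 9.85 in susceptible control seedlings. Over all 83 genes, the susceptible mean lay below the midpoint of the resistant groups in 39 and above it in 44. It was below the resistant control mean in 13 genes and above the resistant submerged mean in 15. The rule genes therefore held no single pattern of levels.

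**Figure D5:**
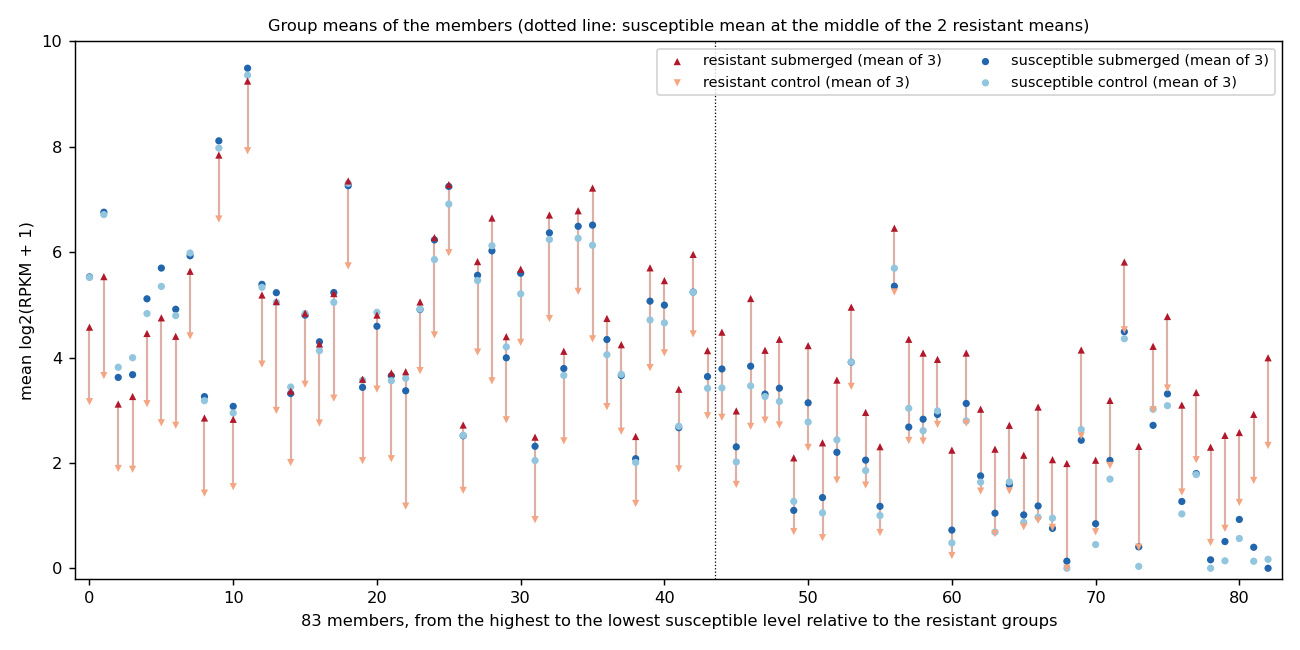
Mean log2(RPKM + 1) of each rule gene in the 4 groups, 3 libraries each, with genes ordered from the highest to the lowest susceptible level relative to the resistant groups. Lines join the resistant submerged (upward triangle) and resistant control (downward triangle) means, and circles are the susceptible means. Circles lie at or above the upper triangles on the left and at or below the lower triangles on the right, and the dotted line divides 44 genes above the midpoint from 39 below it.

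Within each condition the pools differed as the rule and these levels imply, since the same libraries chose the genes. Under water, 30 of the 82 genes were called above and none below the susceptible level (limma), against 11.7% and 4.67% of all tested genes, and 38 and 3 had an unadjusted p under 0.05. In controls, 4 were called higher and 36 lower, against 10.9% and 5.02% of all tested genes. All 6 susceptible libraries were above every resistant control in 40 of the 83 genes, against 5.07% of tested genes, and below every resistant submerged library in 35, against 10.2%. The 4 genes higher in resistant controls, singled out after their values were seen, were BnaC02G0086000ZS, BnaC08G0029000ZS, BnaC07G0463100ZS and BnaA09G0625900ZS.

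A small group of rule genes was near 0 outside the resistant submerged libraries. In 7 genes every susceptible library was under 1 RPKM, and in 5 of these every resistant control was also under 1 RPKM. The rule set a minimum level in resistant submerged libraries only. The share of such genes among all tested genes was not counted, so these counts are a description. The 5 were singled out after their values were seen. BnaC07G0463100ZS had 4.28, 5.24 and 4.75 RPKM in resistant submerged, 0.502, 0.691 and 0.899 RPKM in resistant control, 0.321, 0.563 and 0.389 RPKM in susceptible submerged and 0, 0.0686 and 0.255 RPKM in susceptible control libraries. BnaC03G0400800ZS, BnaA02G0086700ZS and BnaA10G0131200ZS averaged 4.11, 3.99 and 3.83 RPKM in resistant submerged seedlings and 0.407, 0.322 and 0.184 RPKM in resistant controls. In these 4 genes each resistant submerged library was above every other library. The fifth, BnaA05G0333100ZS, had 3.56, 11.9 and 0.0632 RPKM in resistant submerged libraries and was listed at 0 in all resistant and susceptible controls, with 0.159, 0 and 0.141 RPKM in susceptible submerged libraries. The last of these resistant submerged libraries was within the susceptible range, and this was the rule gene that did not reach the minimum for testing.

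By position, 48 of the 83 genes were on A and 35 on C chromosomes, or 1.89 and 1.30 per 1000 tested genes. A09 and C03 held 9 each, A06 held 8 and A03 held 7, and each of the 19 chromosomes held at least 2. Per 1000 tested genes the number ran from 0.656 on C04 and 0.661 on A05 to 2.77 on A10 and 2.99 on A06. No rule genes were neighbours: none had another within 20 places in the order of identifiers, and the closest lay 50 places apart on A07. Chromosomes A02 and C02 held 4 rule genes each, and 5 of these 8 fell among the first 500 tested genes of their chromosome. That stretch holds 22.4% of tested genes on A02 and 19.4% on C02. The openings of other chromosomes were not counted, so no concentration is read from these 5 genes. They were the abundant BnaA02G0014300ZS and BnaA02G0077500ZS on A02, and BnaC02G0014000ZS, BnaC02G0043700ZS and BnaC02G0086000ZS on C02. BnaC02G0014000ZS had 219, 127 and 153 RPKM in resistant submerged and 57.0, 45.0 and 56.1 RPKM in resistant control libraries, against 195, 275 and 65.7 RPKM in susceptible submerged and 139, 89.8 and 312 RPKM in susceptible control libraries, so that its susceptible libraries spread over the whole resistant submerged range and beyond.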

How the data were processed

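The deposited values are RPKM per gene and library, made by the authors; HISAT2 and StringTie are named per the submitters' processing notes, with no version, setting or genome build; these were not given in the sources used here. No counts were recovered, so no counting intervals are given. The labels name 4 groups of 3 replicates. Values were taken as log2(RPKM + 1), and fold changes on this scale understate the change of low genes. The 57391 genes at 1 RPKM or more in at least 3 libraries were fitted with limma 3.58.1 (R 4.3.3; group means over 12 libraries, intensity trend, Benjamini-Hochberg adjustment); summaries used Python 3.11.15. An adjusted p under 0.05 was a call, and p-values measure the spread between these mixed samples. Named were the 2 genes with the largest resistant change, level, difference of responses (mean of at least 10 RPKM in resistant submerged libraries), and positive and negative pool difference; no genes neighboured each other. The fit was checked on simulated data. Alternatives were pseudocount, filter, scaling, limits of the rule, replicate block, libraries in the fit and single libraries left out. The genes and lists were chosen with earlier results of these data known. Lists of named pathway genes could not be used, since 0 identifiers matched the 123214 entries of the reference table.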

Additional observations from a re-analysis of the deposited data

Results flagged for a closer look

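For 4 of the genes named by rule the difference between the responses of the pools was called (limma, adjusted p under 0.05). The resistant minus susceptible response was 3.19 on the log2(RPKM + 1) scale for BnaA09G0383300ZS, 2.79 for BnaA10G0211400ZS, 2.48 for BnaA03G0439700ZS and 1.83 for BnaC02G0086000ZS. The resistant submerged libraries were above the resistant controls in 3 of 3 libraries for each. The genes were chosen by these responses, so the differences and their calls are descriptions and not independent evidence. Of 18 alternatives, the call was kept in 9 for BnaA09G0383300ZS (adjusted p from 0.0225 to 0.1003), in 6 for BnaA10G0211400ZS (0.0193 to 0.1084) and in 4 for BnaA03G0439700ZS (0.0358 to 0.1174). For BnaC02G0086000ZS it was kept in 16 of 17. This gene was at or near 0 in all susceptible libraries, which leaves no room for a fall there. It passed the minimum levels through the resistant libraries, so nothing is read from its call. The direction was the same in each of these alternatives.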

How the results depend on the processing

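The rule found 134 genes with a resistant limit of 1 and 45 with one of 1.5, and 43 with a susceptible limit of 0.2 and 138 with one of 0.6. It found 93 genes with a pseudocount of 0.1, 98 after quantile normalization and 81 after median ratio scaling, of which 65, 60 and 53 were among the 83. Calls in the susceptible response numbered 3 with a pseudocount of 0.1, 0 without a filter and 0 with the stricter filter (mean of 5 RPKM). They numbered 6 after quantile normalization, 8 after median ratio scaling, 0 with only the groups compared, and 0 to 2 without single libraries. Over all tested genes, 29521 to 88508 of them, these settings called 4743 to 10341 higher and 7786 to 17957 lower in this response. Calls in the difference of responses numbered 5 with a pseudocount of 0.1, 9 without a filter, 6 with the stricter filter, and 1 to 18 without single libraries. Over all tested genes, calls in this direction numbered 82, 121 and 63 in these settings, and 10 to 210 without single libraries. The stricter filter tests fewer genes, 57 of the rule genes. It left 6 higher in the resistant pool on average, 0 higher in controls and 10 higher under water. Over the 29521 genes tested with it, 5416, 2606 and 2995 were called higher in these comparisons. Rule genes lower under water numbered 0 to 3 without single libraries, beside 1413 to 3141 of all 57391 tested genes. The cause of these shifts was not tested.

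Same-numbered libraries correlated in their deviations with r from -0.340 to 0.390, over 0.1 in 5 of 18 pairs, and 1 of 12 libraries correlated best with its own number, so the numbers do not pair the samples. A fit with a replicate block called 4 genes in the difference of responses, beside 23 over all tested genes in this direction. Over all counts, 169 of 205 alternatives stayed within 1.5 times the reported count. For named genes, 234 of 270 alternatives kept direction and call, and the other 36 kept the direction and lost the call. Depth is unknown, so values near 0 carry no floor.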

Other observations

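The genes lying next to a rule gene in the order of identifiers, 92 tested genes, had a median change of -0.061 in resistant and -0.19 in susceptible seedlings. Of them, 9.78% stood at least 1.2 higher after submergence in the resistant pool. Over the other 52212 tested A and C genes the medians were -0.21 and -0.19, and the share was 4.54%. These shares were not tested against each other.

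Deviations from group means were compared between rule genes over the 12 libraries, as a description. The mean correlation between pairs of genes was 0.165 in the 25 genes lower in the resistant pool, -0.0076 in the 21 higher and 0.0922 in the 36 not called, against 0.0223 between tested A and C genes. The genes share these libraries, and the correlations carry no p.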
